A study of Mus musculus with 6 samples.

Results

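Klotho (Kl), its relative Klb, the proteases Adam10 and Adam17 that shed Klotho from the cell surface, and the FGF receptor genes Fgfr1, Fgfr2 and Fgfr3 were followed in the choroid plexus of young and aged mice. The 7 genes were taken by symbol from the array's annotation. They are read by 19 of the 45037 probe sets that are not controls, and they are 7 of 18193 genes with a probe set of their own. The mice were males of the outbred CD1 stock with no treatment named, and RNA was taken from the whole choroid plexus of the lateral ventricles. There were 3 aged mice (18 months) and 3 young mice (2 months), with both lateral plexuses of a mouse on 1 array, so n = 3 counts animals. The title of the series sets young against aged tissue, and the question here is how these transcripts differ between the ages.

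The choroid plexus makes cerebrospinal fluid and is, with the kidney, a main site of Klotho expression. Klotho is a single-pass membrane protein that joins an FGF receptor to form the receptor for the hormone FGF23. ADAM10 and ADAM17 cut it close to the membrane and release a soluble form, which is found in blood and cerebrospinal fluid. Mice without Klotho show features of early ageing, and beta-Klotho, the product of Klb, serves FGF21 and FGF15 in the same way as a co-receptor, mainly in liver and fat. The array measures transcripts only, so neither Klotho protein nor its shedding was measured here.

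None of the 6 genes bright enough to test differed between the ages beyond the spread between mice, and the seventh, Klb, lay in the background. Of the 6, 3 had a higher and 3 a lower mean log2 intensity at 18 months. All 6 pairs of ranges overlapped. By limma 0 of the 6 passed an adjusted p of 0.05, where 0% of the 12681 genes tested did, and their adjusted p ran from 0.867 to 0.952. At an unadjusted p under 0.05 the count was also 0 of 6, against 7.05% of all genes. A gene was represented by its probe set with the highest mean. The level of 1 probe set is not compared with that of another, since probes differ in brightness.

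**Figure D1:**
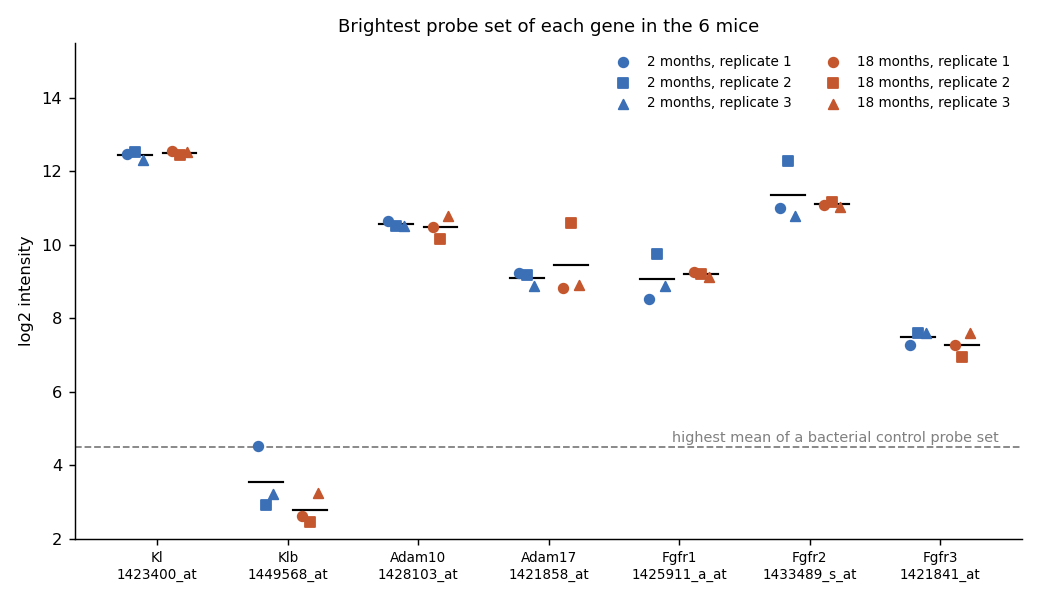
Log2 intensity of the brightest probe set of each gene, with 1 point for each mouse (blue, 2 months; orange, 18 months; marker shape, replicate) and a bar at the mean of 3 mice. The ages overlap for each gene, Kl is the tightest at 12.31 to 12.54, and Klb lies around or below the dashed line, the highest mean of a bacterial control probe set (4.51); heights of different genes are not comparable.

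Kl, the hormone co-receptor, stood at 12.54, 12.43 and 12.53 (log2 intensity) in the aged mice and at 12.48, 12.53 and 12.31 in the young ones. The 6 values span 0.23, and the lowest and a near-highest value both belong to young mice. The means were 12.50 ± 0.06 and 12.44 ± 0.12 (SD, n = 3 each). They differed by 0.06 on the log2 scale (SE 0.16, limma adjusted p = 0.952). The 95% confidence interval, from -0.32 to 0.44, corresponds to a level at 18 months between 0.803-fold and 1.36-fold of that at 2 months. The residual SD of Kl was 0.09, smaller than that of all but 3.85% of the genes tested, whose median was 0.31. A spread this small is not particular to Kl among epithelial genes of like intensity. The SD at 18 and 2 months was 0.03 and 0.05 for Kcnj13 and 0.07 and 0.08 for Igfbp2. It was larger for others, such as Slc4a5 (0.12 and 0.22). Because limma draws each variance towards that of all genes, the SE and interval of Kl are wider than its own spread would give.

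The second Kl probe set, 1451892_at, is dimmer and varied more. It gave 9.23, 9.96 and 9.44 in the aged mice and 9.59, 9.37 and 9.81 in the young ones. The highest and the lowest of the 6 values are both from aged mice, and the difference was -0.05 (SE 0.24; interval -0.63 to 0.54). Which Kl transcript each probe set reads was not determined, so the membrane and the alternatively spliced secreted form are not separated.

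Set against the epithelium, Kl again differed little. The mean of 23 choroid plexus epithelial markers lay between 11.41 and 11.53 at 18 months and between 11.39 and 11.54 at 2 months. Kl minus that mean, of which only the change between mice can be read, was 1.02 ± 0.11 at 18 months and 0.97 ± 0.05 at 2 months (SD, n = 3 each), higher by 0.05 in the aged mice (two-sided exact permutation p = 0.5). The 23 markers did not move alike, as 10 were higher and 13 lower at 18 months. Ranges of the ages lay apart for 2 of the higher (7.06% of all genes) and 5 of the lower (6.25%). Set against Ttr alone, the gene of the thyroxine carrier transthyretin, the Kl difference was 0.23 (exact permutation p = 0.1, the smallest that 3 mice against 3 allow). Ttr itself ran from 14.25 to 14.36 at 18 months and from 14.46 to 14.48 at 2 months, so its 2 ranges did not overlap. For the other 5 genes the difference relative to the marker mean ran from -0.26 to 0.33, with exact permutation p from 0.4 to 1.

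Klb gave no signal above background. Its probe set 1449568_at had log2 intensities of 2.61, 2.46 and 3.24 in the aged mice and 4.51, 2.91 and 3.20 in the young ones. The other, 1426075_at, ran from 2.57 to 2.84. Among 27 bacterial controls the median was 3.03, and the highest single value, 4.71, lay above each of the 12 Klb values. The difference of the brighter probe set, -0.77 (SE 0.45, probe set fit adjusted p = 0.927), thus compares values in the background, and 2-month replicate 1 alone lies apart. Klb did not reach the brightness filter and was not tested with the other genes.

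Adam10, one of the sheddases, had 10.48, 10.16 and 10.77 in the aged mice and 10.65, 10.52 and 10.52 in the young ones by its brightest probe set, 1428103_at. The aged mice lay on both sides of the young ones. The difference was -0.09 (SE 0.20, limma adjusted p = 0.943; interval -0.58 to 0.39). A dimmer probe set, 1450105_at, gave 8.03, 7.52 and 7.31 against 7.58, 7.36 and 7.67.

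The probe set 1450104_at of Adam10 set 1 mouse apart. It gave 7.03, 10.96 and 7.61 in the aged mice and 7.61, 7.72 and 7.86 in the young ones. The value of 18-month replicate 2 exceeded the next highest by 3.10, or 8.59-fold, and a larger gap of this kind was found for only 0.292% of the 27022 probe sets above the filter. In the same mouse 1428103_at had its lowest value. The mean difference of 0.80 (SE 0.98) rests on that mouse and was -0.41 without it. The fourth Adam10 probe set, 1460083_at, ran from 2.63 to 3.79 and lay in the background.

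Adam17, the other sheddase and also the protease that frees tumour necrosis factor, showed the same mouse apart in its brightest probe set. With 1421858_at it had 8.82, 10.59 and 8.90 in the aged mice and 9.23, 9.17 and 8.87 in the young ones. Apart from 18-month replicate 2, aged and young mice lay between 8.82 and 9.23. The difference was 0.34 (SE 0.48, limma adjusted p = 0.909; interval -0.81 to 1.49) and became -0.23 without that mouse.

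A second Adam17 probe set, 1421859_at, was the only 1 of the 19 whose ages did not overlap. Its log2 intensities were 8.29, 8.38 and 8.40 in the aged mice and 8.81, 8.57 and 8.66 in the young ones. The difference of -0.32 (SE 0.15; interval -0.69 to 0.04) had an unadjusted p of 0.0728 and an adjusted p of 0.895 over all probe sets by limma. Ranges that lay apart with 18 months lower were found for 5.63% of all 45037 probe sets, or 1 of 19 here (and 5.36% against 0 of 19 for 18 months higher). The third Adam17 probe set, 1421857_at, had 7.58, 6.80 and 6.25 at 18 months around 7.05, 7.14 and 7.13 at 2 months. The aged mice were again on both sides of the young.

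**Figure D2:**
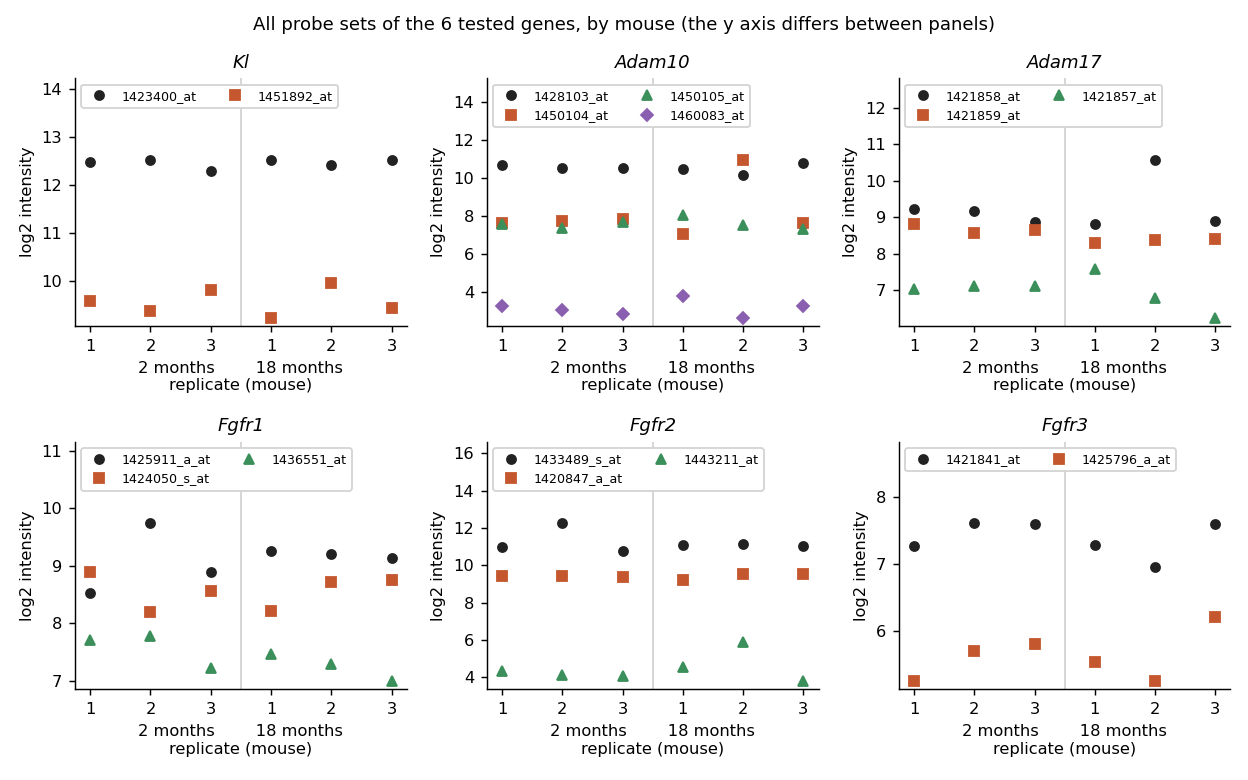
Log2 intensity of each probe set (colour and marker) of the 6 tested genes in the 3 mice of each age; the y axis differs between panels. The Adam10 probe set 1450104_at and the Adam17 probe set 1421858_at stand out in 18-month replicate 2 (10.96 and 10.59), and 1433489_s_at of Fgfr2 and 1425911_a_at of Fgfr1 are highest in 2-month replicate 2 (12.27 and 9.75).

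Fgfr1, the receptor with which Klotho is best known to bind FGF23, had 9.27, 9.21 and 9.13 in the aged mice and 8.53, 9.75 and 8.89 in the young ones by 1425911_a_at. The aged mice were close together, and the young mice lay on both sides of them. The difference was 0.15 (SE 0.32, limma adjusted p = 0.943; interval -0.62 to 0.91). Its direction turned to -0.12 without 2-month replicate 1. The probe set 1424050_s_at gave 8.21, 8.72 and 8.75 against 8.90, 8.20 and 8.57, so that 2-month replicate 2, highest by the first probe set, was lowest by this one. The third, 1436551_at, gave 7.46, 7.29 and 6.99 against 7.71, 7.78 and 7.23, a difference of -0.33 (SE 0.22) with overlapping ranges.

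Fgfr2, a receptor of epithelial cells and glia, had 11.09, 11.15 and 11.04 in the aged mice and 10.99, 12.27 and 10.78 in the young ones by 1433489_s_at. All mice but 2-month replicate 2 lay within 10.78 to 11.15. The difference was -0.25 (SE 0.39, limma adjusted p = 0.917; interval -1.19 to 0.69), and it was 0.21 without that mouse. By 1420847_a_at the values were 9.19, 9.53 and 9.54 in the aged mice and 9.40, 9.45 and 9.40 in the young ones. The difference there was 0.00 (SE 0.17), and 2-month replicate 2 did not stand apart. The dim 1443211_at lay between 3.79 and 5.91, with its highest value in 18-month replicate 2.

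Fgfr3, a receptor found in astrocytes among other cells, had 7.27, 6.94 and 7.60 in the aged mice and 7.27, 7.61 and 7.59 in the young ones by 1421841_at. The difference was -0.22 (SE 0.22, limma adjusted p = 0.867; interval -0.76 to 0.32). The dimmer 1425796_a_at gave 5.53, 5.24 and 6.20 against 5.24, 5.69 and 5.80, a difference of 0.08 (SE 0.30). Both probe sets had their highest aged value in 18-month replicate 3 and their lowest in 18-month replicate 2.

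Over all 19 probe sets of the 7 genes, 10 were higher and 9 lower at 18 months. In the fit over all probe sets 0 of the 19 passed an adjusted p of 0.05 by limma, against 0.00222% of all, and 0 of the 19 had an unadjusted p under 0.05, against 5.68%. A single array exceeded the next by over 1 on the log2 scale in 3 of the 15 that lay above the filter, compared with 6.21% of all such probe sets. Those 3 are the Adam10, Adam17 and Fgfr2 probe sets described above.

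**Figure D3:**
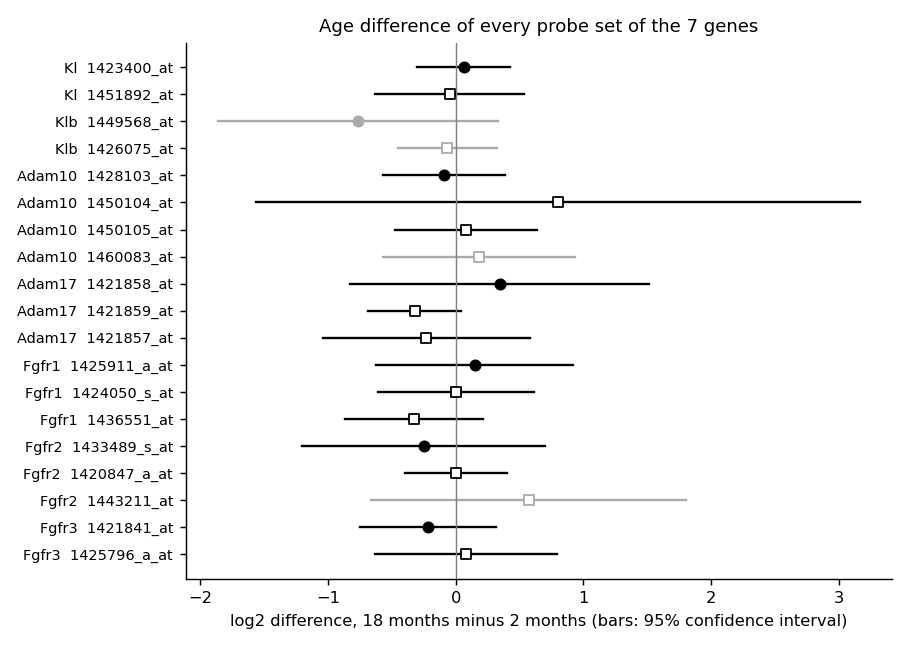
Log2 difference, 18 months minus 2 months, of the 19 probe sets with 95% confidence intervals from the fit over all probe sets (filled circles, the brightest probe set of a gene; open squares, its others; grey, below the brightness filter). Each interval includes 0, and the Kl probe set 1423400_at is among the narrowest (-0.30 to 0.42) while the Adam10 probe set 1450104_at is the widest (-1.56 to 3.17).

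The samples held other cells in amounts that varied. The mean of 15 neuron markers ran from 6.90 to 8.82 at 18 months and from 7.06 to 8.69 at 2 months, and that of 11 astrocyte markers from 8.31 to 9.11 and from 7.99 to 8.87. The mean of 13 oligodendrocyte markers ran from 7.20 to 8.58 and from 6.40 to 8.06. The neuron, astrocyte and oligodendrocyte means were all highest in replicate 3 at both ages. They were lowest in 18-month replicate 1 and in 2-month replicate 2. Of the marker means, 3 did not overlap between the ages. Macrophage and microglia markers (11 genes, 9 higher and 2 lower) were at 7.11 to 7.68 against 6.78 to 6.89. Ependymal and multiciliated cell markers (13 genes, 2 higher and 11 lower) were at 8.37 to 8.65 against 8.79 to 9.29. The macrophage markers that were lower are Cd14 and Tyrobp. Mrc1 (4.72 in young mice), Cd14 (4.90 in aged) and Fam183b (4.55 in aged) had 1 mean below the filter of 4.92. Each of them was thus tested only through the group where it is higher. The mean of the 3 pituitary markers tested lay apart as well, at 7.68 to 8.81 against 5.95 to 6.54, while the other 6 of 9 listed were not tested. Of these 3, the growth hormone gene Gh differed by 4.98 and Pomc by 1.34, and Lhb by -0.04 with overlapping ages. The mean of Gh in young mice, 4.91, lies just below the filter, so it was tested only through the aged group. Stromal, endothelial and mural cell markers overlapped. For Gapdh, the 3' control signal exceeded the 5' one by 1.24 to 1.55 in aged and 1.43 to 1.67 in young mice. The beta-actin control differed from this, with 3' minus 5' from -0.27 to -0.11 in aged and from -0.41 to 0.04 in young mice. In such tissue, fewer cells of a type and less RNA per cell cannot be told apart.

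Each of the 6 tested genes was also set against the neuron, astrocyte and epithelial marker means over the 6 mice, 18 relations in all. After Benjamini-Hochberg adjustment 0 passed. Fgfr2 and the epithelial markers were the closest pair (Pearson r = 0.72, exact permutation p = 0.0208, adjusted 0.375; Spearman rho = 0.94, exact permutation p = 0.0167, adjusted 0.300). Without the 2 mice farthest from the median of the marker mean, r was 0.79 over 4 mice. In 2-month replicate 2, where Fgfr2 was highest, the epithelial mean was highest too (11.54), and the astrocyte mean was lowest (7.99). Kl gave r = -0.52 with the neuron markers and 0.42 with the epithelial markers (exact permutation p = 0.257 and 0.406; rho -0.43 and 0.26, p = 0.419 and 0.658; adjusted 0.638 for both r). Without the 2 outermost mice these were -0.96 and -0.66 over 4 mice, so the second turned its sign. Fgfr3 gave r = 0.27 with the astrocyte markers (exact permutation p = 0.601, adjusted 0.677; rho -0.09, p = 0.919), and -0.92 over the 4 mice left.

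Over the 6 mice, the tested genes with the pattern most like Kl by Pearson r were Ppargc1b, a metabolic coactivator gene (0.99), Rpn1, of the oligosaccharyltransferase (0.99), Kifbp, a kinesin-binding protein gene (0.98), the phosphatase gene Ptpn21 (0.98) and the ubiquitin ligase gene Trim11 (0.98). Of 12061 genes compared, 91 had r over 0.9, and Kl itself varied by only 0.23. The ranges of these 5 genes ran from 0.26 (Rpn1) to 1.65 (Ptpn21).

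The genes that work with the members were followed in 10 lists of 197 genes, of which 141 were tested. None passed an adjusted p of 0.05 by limma. At an unadjusted p under 0.05, 6 were higher (4.02% of all genes tested) and 2 lower (3.03% of all). Of all genes tested, 50.4% had a higher mean at 18 months, and the median difference was 0.00. Ranges of the ages lay apart with 18 months higher for 7.06% of all genes and with 18 months lower for 6.25%.

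The hormones that use Klotho proteins were not seen above background. The mean log2 intensities of Fgf15, Fgf21 and Fgf23 were 3.94, 4.32 and 4.16, below the highest mean of a bacterial control. Fgfr4, the fourth receptor, had a mean of 4.73 and did not reach the filter. Fgfrl1, a receptor-like gene without a kinase domain, was the other receptor tested, with 9.55, 9.75 and 9.76 in the aged mice and 10.06, 9.96 and 9.87 in the young ones. All aged mice lay below all young ones, with a difference of -0.28 (SE 0.16, limma adjusted p = 0.781), or -0.17 when averaged over the gene's probe sets.

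Of the paracrine FGF ligands and their binding proteins, 10 of 17 were tested, 4 higher and 6 lower, with a median of -0.06 (-0.14 without 18-month replicate 1) and 0 at an unadjusted p under 0.05. Fgf22 gave 5.02, 5.01 and 5.37 against 4.89, 4.95 and 4.93, a difference of 0.21 (SE 0.17) close to the filter. It was 0.096 without 18-month replicate 3 and 0.020 when averaged over the gene's probe sets. Fgfbp3, which encodes an FGF carrier, differed by -0.90 (SE 0.60), by -0.31 without 18-month replicate 1 and by -1.59 without 18-month replicate 3. Its mean of 4.73 in aged mice was below the filter, so it was tested only through the young group (5.62). It ranged from 3.55 to 6.12 in aged mice and enclosed the young ones.

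Among adaptors and signal carriers downstream of the receptors, 19 of 25 genes were tested, 13 higher and 6 lower, with a median of 0.11 that was 0.015 without 18-month replicate 2. Sos2, a Ras exchange factor gene, had 9.17, 8.61 and 8.88 in the aged mice and 8.28, 8.50 and 8.24 in the young ones. Its ages did not overlap (difference 0.55, SE 0.20, unadjusted p = 0.0341, limma adjusted p = 0.682). Cbl, a ubiquitin ligase gene that ends receptor signalling, differed by -0.74 (SE 0.36) with overlapping ranges. That difference was -0.18 when averaged over the gene's probe sets and -1.15 without 2-month replicate 1. FGF feedback inhibitors and targets split evenly, 7 higher and 7 lower of 14 tested (median 0.03, or 0.23 without 2-month replicate 2). Spry1, a feedback inhibitor of Ras signalling, had 6.69, 6.73 and 6.91 against 6.28, 6.56 and 6.45 (0.35, SE 0.17, limma adjusted p = 0.746). Dusp6, an ERK phosphatase gene, differed by 0.64 (SE 0.34), or by 0.33 without 18-month replicate 3, and its ages overlapped.

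Heparan sulfate is the sugar that FGFs need to bind their receptors. Of 31 genes for its synthesis and core proteins, 25 were tested, 9 higher and 16 lower (median -0.06), with 1 and 2 at an unadjusted p under 0.05. The syndecan core protein gene Sdc1 had 6.61, 6.20 and 6.67 in the aged mice and 7.27, 7.82 and 7.32 in the young ones. All aged mice lay below all young ones, a difference of -0.98 (SE 0.23; interval -1.53 to -0.42) or 1.97-fold lower (unadjusted p = 0.00447, limma adjusted p = 0.507). Its difference was -0.53 when averaged over the gene's probe sets. The glypican gene Gpc3, 1 of the 2 lower genes at an unadjusted p under 0.05, had means of 4.80 in aged and 5.52 in young mice. The first lies below the filter of 4.92, so Gpc3 was tested only through the young group. It differed by -0.72 (SE 0.29), or by -0.47 without 18-month replicate 3, with overlapping ranges.

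The genes that act on the sheddases leaned to 1 side. Of 21 partners, activators and inhibitors of ADAM10 and ADAM17, 20 were tested. A higher mean at 18 months was found for 18 of them, against 50.4% of all genes tested. The smallest of these 18 differences was 0.003, and the list median was 0.18 against 0.00 over all genes. Over the alternatives the median stayed between 0.16 and 0.25. Of the 20, 3 were higher at an unadjusted p under 0.05 by limma (4.02% of all genes) and 0 passed the adjustment. The list was chosen with earlier results of these data known. It joins activators and inhibitors, so the lean gives no direction for shedding. In the same mice the macrophage marker mean was higher and the ependymal mean lower at 18 months. The pituitary mean was higher as well, over 3 genes, of which Gh was tested only through the aged group. Lhb, another of the 3, differed by -0.04. The part of these cell types in the lean was not tested.

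The tetraspanin gene Tspan10, of the group that brings ADAM10 to the surface, had 7.02, 5.96 and 6.39 in the aged mice and 5.25, 5.47 and 5.40 in the young ones. The ages did not overlap (difference 1.08, SE 0.28, unadjusted p = 0.00746, limma adjusted p = 0.568). The metalloproteinase inhibitor gene Timp4 had 5.73, 9.26 and 6.99 against 5.08, 3.74 and 5.53. Its ages did not overlap, with 18-month replicate 2 far above the rest. Its mean was 7.33 in the aged mice and 4.78 in the young ones, below the filter of 4.92, so it was tested only through the group where it is high. The difference of 2.54 (SE 0.92, limma adjusted p = 0.682) was 1.58 without that mouse and 1.32 when averaged over the gene's probe sets. Timp3, the inhibitor best known for ADAM17, differed by 0.03, and Furin, a convertase that activates both proteases, by -0.14. Of the iRhom genes, whose products help ADAM17 mature, Rhbdf2 differed by 0.03. Rhbdf1 differed by 0.67 (SE 0.26, unadjusted p = 0.0381, limma adjusted p = 0.697) with overlapping ages, and is the third of the genes at an unadjusted p under 0.05. These 4 were chosen for their known role after their values were seen.

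Other membrane proteases of the ADAM and BACE families were tested for 5 of 10 genes, 3 higher and 2 lower (median 0.01). That median was -0.29 without 18-month replicate 3 and 0.27 without 18-month replicate 2. Bace1, the beta-secretase gene, differed by 0.28 (SE 0.20), or by 0.17 without 2-month replicate 1 and 0.18 without 18-month replicate 3. Adam23, an ADAM gene without protease function, differed by -0.74 (SE 0.70), or by 0.023 without 18-month replicate 1, -1.46 without 18-month replicate 3 and -0.23 when averaged over the gene's probe sets. Both had overlapping ages. Of 41 other substrates of the sheddases, 31 were tested, 19 higher and 12 lower, with a median of 0.12. Jag1, a Notch ligand gene, had 7.35, 6.75 and 7.43 in the aged mice and 6.54, 6.07 and 6.50 in the young ones. The aged mice were all above the young ones (0.80, SE 0.25, unadjusted p = 0.0165, limma adjusted p = 0.636), but the difference was 0.19 when averaged over the gene's probe sets. Il6st, the gene of the shared interleukin-6 receptor chain, lay the other way, with 9.17, 9.26 and 9.44 against 9.75, 9.54 and 9.56 (-0.33, SE 0.17). Averaged over the gene's probe sets, the difference was -0.026. The median of this list was -0.0045 without 18-month replicate 3.

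Klotho is known for its part in phosphate and vitamin D balance. Of 27 genes for vitamin D, phosphate and calcium handling, 16 were tested, 7 higher and 9 lower (median -0.05), and 0 had an unadjusted p under 0.05. Xpr1, the phosphate exporter gene, had 11.10, 11.18 and 11.48 in the aged mice and 10.88, 11.03 and 10.79 in the young ones, the ages apart (0.35, SE 0.18, limma adjusted p = 0.763). Averaged over the gene's probe sets, the difference was 0.080. Ank, of pyrophosphate transport, differed by 0.47 (SE 0.33) with overlapping ages. Its difference was 0.83 without 18-month replicate 1, 0.28 without 18-month replicate 2 and 0.29 without 18-month replicate 3. Vdr, the vitamin D receptor gene, differed by 0.05, and it was chosen for its role after its value was seen.

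**Figure D4:**
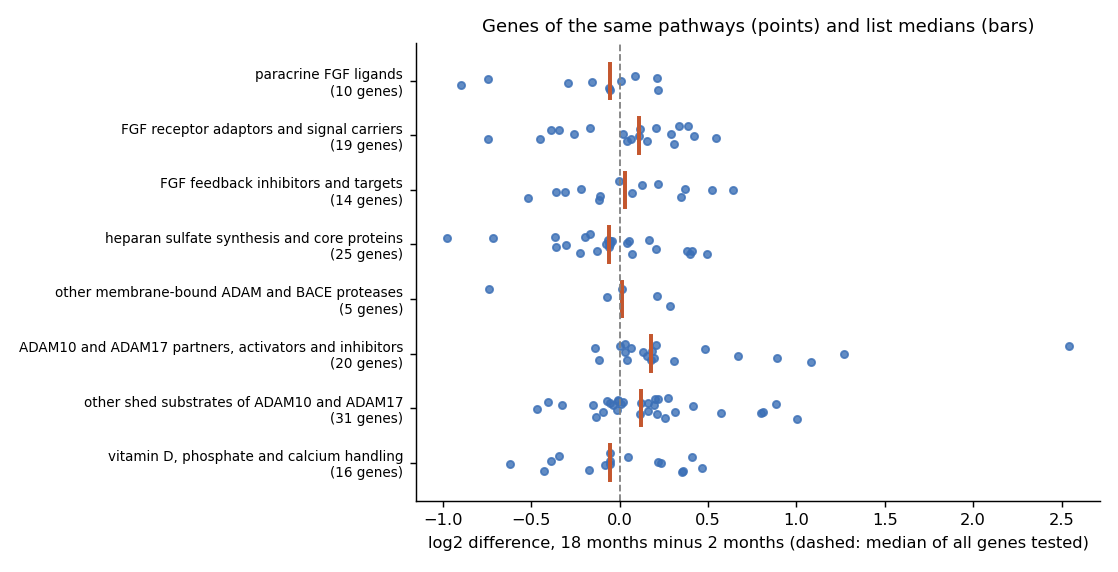
Log2 difference, 18 months minus 2 months, of each tested gene (point) in the 8 lists with at least 5 tested genes, with the list median (orange bar) and the median of all genes tested (dashed, 0.00). The partners of ADAM10 and ADAM17 have 18 of 20 points above 0 (median 0.18), with Timp4 at 2.54. The other medians lie between -0.06 and 0.12. Of all genes tested 50.4% lie above 0, and the lists were chosen with earlier results of these data known.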

How the data were processed

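The authors deposited 1 table of intensity values for 45101 probe sets of 6 Affymetrix arrays, made with RMA per the submitters' processing notes (version not given in the sources used here). The intensities ran from 2.47 to 26820.7, a linear scale, and their log2 was taken. RNA was amplified before labelling, per the labels' protocols, and such amplification can distort dim transcripts. Names came from the annotation of the platform, for probe sets with 1 gene symbol (34945; 932 had several and 9160 none). All 7 members matched the RefSeq gene table (GRCm38.p6) by gene ID. No build was named with the values, so no coordinates are given.

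The brightest probe set stood for a gene, and genes at or above the 40th percentile of mean log2 intensity (4.92) were tested. The ages were compared with limma 3.58.1 (R 4.3.3; lmFit, eBayes; two-sided, Benjamini-Hochberg over the 12681 genes tested; 6.61 degrees of freedom), and every probe set in a second fit over all 45037. SE and intervals (95%) come from the fits. The number of arrays limits the precision. The limma p-values set a difference against the spread between these mice, moderated towards that of all features in the fit. Members and gene lists were chosen with earlier results of these data known. Apart from the members, the genes named are the up to 2 with the smallest p in each list and the 5 most like Kl; exceptions are marked. Alternatives are given in the closing section.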

Additional observations from a re-analysis of the deposited data

How the results depend on the processing

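Over 14 alternatives for each of the 6 tested genes, 0 passed an adjusted p of 0.05 by limma, their adjusted p running from 0.736 to 0.997. Over all genes, where 0 were called (894 at an unadjusted p under 0.05), 4 were called with the 60th percentile filter, 5 with the mean of all probe sets, 5 with each array centred on its median, 1 with the neuron marker covariate and 4 with array weights. With the mean of all probe sets the sign turned for Adam10 (0.24), Adam17 (-0.070), Fgfr1 (-0.058) and Fgfr2 (0.11), whose probe sets disagree, and relative to Ttr alone it turned for Adam10 (0.077). For Fgfr2 that mean includes 1443211_at (0.57), below the filter, beside -0.25 and 0.00 for the brighter probe sets. For Adam10 the largest difference in it is that of 1450104_at (0.80), which rests on 18-month replicate 2.

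Leaving out each mouse in turn, the difference ran from -0.0030 to 0.11 for Kl, from -0.24 to 0.061 for Adam10, from -0.23 to 0.65 for Adam17, from -0.12 to 0.49 for Fgfr1, from -0.53 to 0.21 for Fgfr2 and from -1.46 to 0.023 for Adam23. The same ranges hold for the probe sets that stand for the 5 members among these. For the others that turned, they were -0.26 to 0.11 (1451892_at), -0.41 to 1.55 (1450104_at), -0.12 to 0.24 (1450105_at), -0.10 to 0.48 (1460083_at), -0.58 to 0.084 (1421857_at), -0.17 to 0.18 (1424050_s_at), -0.059 to 0.12 (1420847_a_at), -0.0087 to 1.05 (1443211_at) and -0.19 to 0.29 (1425796_a_at). Relative to the epithelial markers they were -0.0011 to 0.11 for Kl, -0.29 to 0.075 for Adam10, -0.22 to 0.65 for Adam17, -0.12 to 0.44 for Fgfr1 and -0.51 to 0.16 for Fgfr2. The limma difference of Fgfr3 stayed negative, between -0.38 and -0.06 over its alternatives. Relative to the epithelial markers it lay between -0.43 and -0.04. Its dimmer probe set, 1425796_a_at, turned as given above.

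The deviations of same-numbered mice correlated at -0.02, 0.02 and 0.17, and those of differently numbered mice at -0.15 to 0.14. With 3 mice of each age, these values cannot decide whether the numbers pair the samples. With the replicate block 0 genes were called, and the Kl difference was 0.06. Klb has no value in the tested set and is left out. Signal over background limits Klb, the dim Fgfr2 and Adam10 probe sets, and the endocrine ligands.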
